A study of Mus musculus with 9 samples.

Results

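The nuclear genes of oxidative phosphorylation were followed in leptin receptor positive (LepR+) skeletal stem and progenitor cells. The genes were taken by symbol, as every gene whose name starts with Nduf, Uqcr or Atp5, the Cox4 to Cox8 subunit genes with a letter a, b or c, Sdha to Sdhd and Cyc1. Numbered pseudogenes were left out. This gave 94 of the 52459 genes in the table, and 88 of the 94 reached a mean of 10 normalized counts over all libraries, the filter for testing. Normalized counts are the reads of a gene divided by the size factor of its library, as deposited, and not by gene length. By complex, 16 genes were assigned to the peripheral arm of complex I, 20 to its membrane arm, 8 to its assembly and 4 to complex II. Another 9 were assigned to complex III, 18 to complex IV and 17 to complex V. The Atp5-named genes were all placed in complex V by their symbol alone. They include Atp5s and Atp5sl (now Dmac2), which may not be subunits of it. Cox4i1, a subunit of complex IV, has a digit in place of the letter and is therefore outside the set.

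RNA was sequenced from LepR+ cells sorted by flow cytometry out of the nonhematopoietic part of mouse tibiae and femurs after collagenase digestion. The study holds 3 libraries from untreated young mice of 12 weeks, 3 from untreated middle-aged mice of 52 weeks, and 3 from middle-aged mice of 52 weeks given sodium salicylate, called treated here. The dose and length of treatment, the strain, the sex and the number of mice behind a library were not given in the sources used here, so the p-values measure the spread between these libraries, which may be technical. In bulk RNA, fewer cells of a type and less RNA per cell cannot be told apart.

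Oxidative phosphorylation is carried out in the inner mitochondrial membrane. Complex I takes electrons from NADH and complex II takes them from succinate, complex III passes them from ubiquinol to cytochrome c, and complex IV passes them to oxygen. Complexes I, III and IV pump protons, and complex V, the ATP synthase, uses the proton gradient to make ATP. Most subunits are encoded in the nucleus and imported, while a small core is encoded in mitochondrial DNA. Stromal cells of the marrow are known to draw on both glycolysis and mitochondrial respiration, and osteogenic differentiation is accompanied by greater use of respiration.

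The promoters of 4 of the genes are shown, chosen by the expression values given below. Sdha and Cox5a were the only members whose young, treated and middle-aged libraries fell into separate, ordered ranges, Ndufa1 had the largest difference with age among members with a mean of at least 50, and Atp5b was the most abundant. Each sequence runs 5′ to 3′ along the gene, from 250 bases before the RefSeq start to 30 bases after it (GRCm38.p6). Capitals mark matches to the motif of the transcription factor NRF1, searched as GCGCA, then any base N, then GCGC. The sequence of Sdha is at chr13:74350211-74350490 on the minus strand, that of Cox5a at chr9:57520982-57521261 on the plus strand, that of Ndufa1 at chrX:37191209-37191488 on the minus strand and that of Atp5b at chr10:128083057-128083336 on the plus strand.
Sdha: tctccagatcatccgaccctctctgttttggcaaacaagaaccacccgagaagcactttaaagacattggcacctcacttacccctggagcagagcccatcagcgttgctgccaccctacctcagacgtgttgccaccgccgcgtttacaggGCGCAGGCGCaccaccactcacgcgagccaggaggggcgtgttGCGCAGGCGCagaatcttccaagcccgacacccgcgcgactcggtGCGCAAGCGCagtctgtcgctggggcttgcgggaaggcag
Cox5a: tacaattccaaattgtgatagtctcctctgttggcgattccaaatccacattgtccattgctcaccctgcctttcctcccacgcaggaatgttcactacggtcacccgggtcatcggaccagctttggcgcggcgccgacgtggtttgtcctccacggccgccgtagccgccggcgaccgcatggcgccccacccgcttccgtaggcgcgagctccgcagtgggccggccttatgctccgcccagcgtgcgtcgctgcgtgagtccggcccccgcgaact
Ndufa1: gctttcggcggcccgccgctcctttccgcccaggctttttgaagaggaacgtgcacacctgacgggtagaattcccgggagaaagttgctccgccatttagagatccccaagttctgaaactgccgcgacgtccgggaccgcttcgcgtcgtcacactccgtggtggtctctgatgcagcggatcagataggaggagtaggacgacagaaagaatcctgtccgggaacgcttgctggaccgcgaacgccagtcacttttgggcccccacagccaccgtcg
Atp5b: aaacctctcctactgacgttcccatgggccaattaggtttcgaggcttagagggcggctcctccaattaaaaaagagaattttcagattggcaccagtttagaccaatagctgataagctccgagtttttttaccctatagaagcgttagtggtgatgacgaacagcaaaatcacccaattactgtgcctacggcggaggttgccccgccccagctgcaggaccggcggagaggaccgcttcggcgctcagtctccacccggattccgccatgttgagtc

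Sdha held 3 matches, with their first bases at -98, -55 and -10 relative to the start, and the other 3 sequences held none. Of the 94 genes, 74 matched a RefSeq promoter, which was searched on both strands from 250 bases before to 50 after the start. The NRF1 motif was present in 19 of the 74 promoters (25.7%), against 5.19% of the 27025 promoters of all genes. This background was not limited to the genes that passed the filter for testing, as most members did, and such a limited background was not made. The motif CCGGAAG, bound by factors of the ETS family such as GABP, was present in 18 (24.3%, against 9.93%), and AAGATGG followed by CGG, bound by YY1, in 6 (8.11%, against 0.995%). A match of the YY1 motif can overlap one of the ETS motif by the letters AAG. In all, 36 of 74 promoters (48.6%) held at least 1 of the 3, against 14.6% of all promoters. Among the tested genes with a promoter, the 19 with the NRF1 motif had a median middle-aged minus young difference of 0.45 on the log2 scale, and the 52 without it had 0.27. With any of the 3 motifs the medians were 0.34 with and 0.29 without a match, and for treated minus middle-aged the NRF1 motif gave -0.32 and -0.37. None of these differences was tested. A match is a stretch of letters, and binding was not measured here.

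The libraries held 9902613 to 20746804 reads. Antibody genes took 0.107% to 0.479% of the reads in the young libraries, 3.25% to 32.6% in the middle-aged ones and 1.53% to 8.33% in the treated ones. Middle-aged replicate 3 stood apart, with 32.6% of its reads in antibody genes, the lowest depth, a size factor of 0.364 and 16178 genes with a read, against 19462 to 22540 elsewhere. The defining genes of the sorted cells were present in all libraries, Lepr at 14455 to 102240 and Cxcl12 at 75974 to 570250 normalized counts, with the lowest value of each in middle-aged replicate 3. For 10 of 10 stromal niche markers, all middle-aged libraries lay below all young ones (median log2 difference -1.42), as did 15.1% of all genes tested. By the limma test described below, 0 of these 10 passed. Their sum was 1.32% to 5.69% of the reads outside antibody and mitochondrial genes in middle-aged, 7.69% to 9.03% in young and 5.88% to 7.11% in treated libraries. All 7 pan-leukocyte and all 8 neutrophil markers passed that test as higher with age, beside 2.14% of all genes. So did 1 of 8 B lineage, 1 of 5 macrophage and 1 of 7 erythroid markers. The part of these other cells in the results below was not tested.

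The ATP synthase genes led the set in abundance. Atp5b, which encodes the catalytic beta subunit, ranked the highest by normalized count in 9 of 9 libraries, with 5395, 5460 and 5407 in the young libraries, 5434, 4610 and 4858 in the middle-aged ones and 5838, 5064 and 5649 in the treated ones. The conditions overlapped, and the highest library was only 1.27 times the lowest. Atp5a1, which encodes the alpha subunit, was the next in 8 of 9 libraries, with 3145, 3138 and 2876 in the young libraries, 2953, 3128 and 3097 in the middle-aged ones and 3485, 2856 and 3398 in the treated ones. Its standard deviation over the 9 libraries was 0.098 on the log2 scale, lower than in all but 0.0533% of all genes tested. For comparison, the median standard deviation was 0.42 over the 88 members and 0.70 over all genes (0.55 where the mean was 50 or more). In the comparison of middle-aged with young, the 95% interval of the log2 difference by limma ran from -0.56 to 0.30 for Atp5b and from -0.41 to 0.42 for Atp5a1.

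Because longer transcripts collect more reads, levels were compared between genes per kilobase of the longest principal GENCODE transcript. For a gene that mainly uses a shorter transcript, this value is too low. Atp5b again had the highest mean, 2767 normalized counts per kilobase, followed by Ndufa1 (2118), Atp5g3, Atp5e and Cox6a1 (1752). Atp5g3 encodes the c subunit of the rotating ring and Atp5e the epsilon subunit. Ndufa1 owed its place to the middle-aged libraries, with 839 to 1267 per kilobase in young and 1390, 2883 and 8338 in middle-aged ones. The median per kilobase was 929 over 14 genes of complex IV and 813 over 15 of complex V, against 407 for complex II, 381 for complex III, 316 and 251 for the membrane and peripheral arms of complex I, and 72.0 for the complex I assembly genes. The assembly genes, which help to build the complex and are not part of it, ranged from 33.9 (Ndufaf6) to 107 (Ndufaf3).

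**Figure D1:**
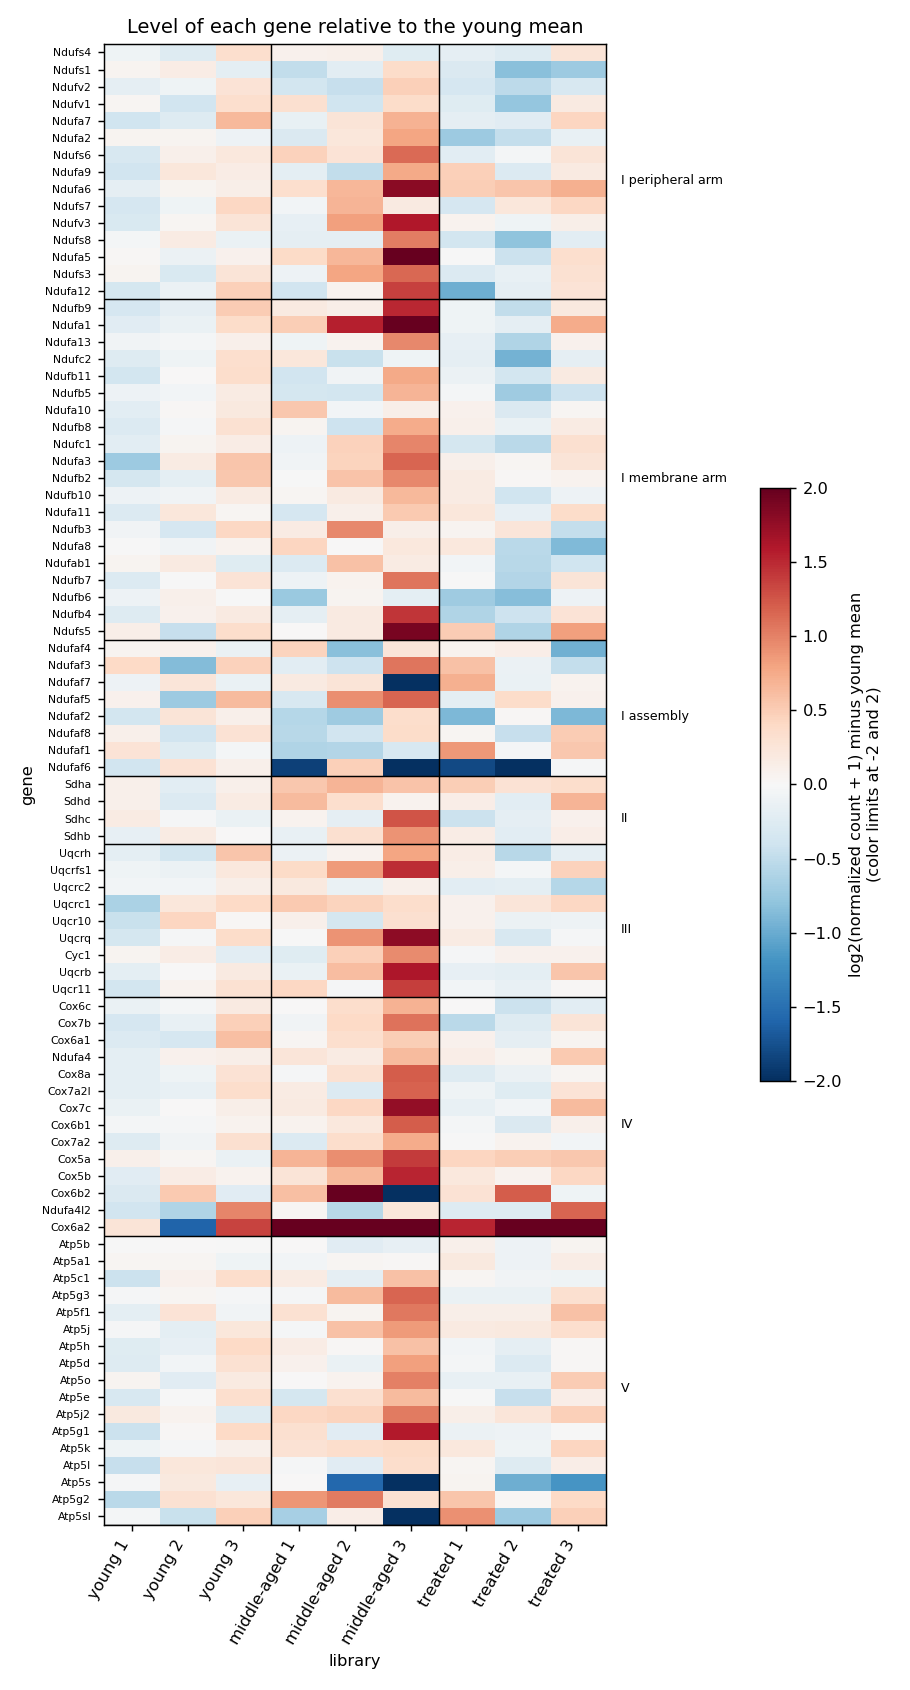
Level of 87 of the 88 tested genes (rows, grouped by complex and ordered by mean within it) in each of the 9 libraries (columns), as log2 of the normalized count plus 1 minus the mean of the young libraries, with the color scale limited at -2 and 2. Middle-aged replicate 3 is the reddest column, and its values lie above both other middle-aged libraries for 67 of the 88 tested genes.

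The comparison of middle-aged with young mice asks how these genes differed with age. The test was limma on log2(normalized count + 1), fitted to 14998 genes and called at an adjusted p under 0.05, and differences are on this log2 scale. None of the 88 genes passed, with 0 higher and 0 lower, while 2.14% of all genes tested were called higher and 0.873% lower. At an unadjusted p under 0.05 there were 9 members (10.2%), all higher, against 10.4% of all genes higher and 13% lower, so the share higher was near that background. edgeR on the recovered reads called 0, and DESeq2 called 4 higher (Cox5a, Ndufa1, Sdha and Uqcrfs1) and 0 lower, at 6.91% and 4.12% of all genes. The median log2 difference of the members was 0.33, with 71 of 88 above 0, beside a median of -0.08 over all genes, of which 46.4% were above 0 and 53.6% below. The sign depended on the scaling, with a member median of -0.24 beside -0.66 for all genes when libraries were scaled by ribosomal protein genes, and 1.76 beside 1.38 by stromal niche genes. Without middle-aged replicate 3 the median was 0.09, with 52 of 88 above 0 and 48.1% of all genes, and 0 were called. Without middle-aged replicate 1, limma called 7 higher, among 5.83% of all genes.

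The share of reads gives the same comparison without the size factors. Of the reads outside antibody and mitochondrial genes, the members took 0.469%, 0.515% and 0.566% in the young libraries, 0.603%, 0.644% and 0.888% in the middle-aged ones and 0.586%, 0.508% and 0.597% in the treated ones. All middle-aged libraries were above all young ones, and the treated libraries overlapped the young and lay below the middle-aged. The widest 95% exact (Clopper-Pearson) interval was that of middle-aged replicate 3, 0.878% to 0.899%. The intervals cover counting error only. As a share of all reads the order was not kept, with 0.295% to 0.399% in the young libraries, 0.269% to 0.347% in the middle-aged ones and 0.323% to 0.374% in the treated ones.

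**Figure D2:**
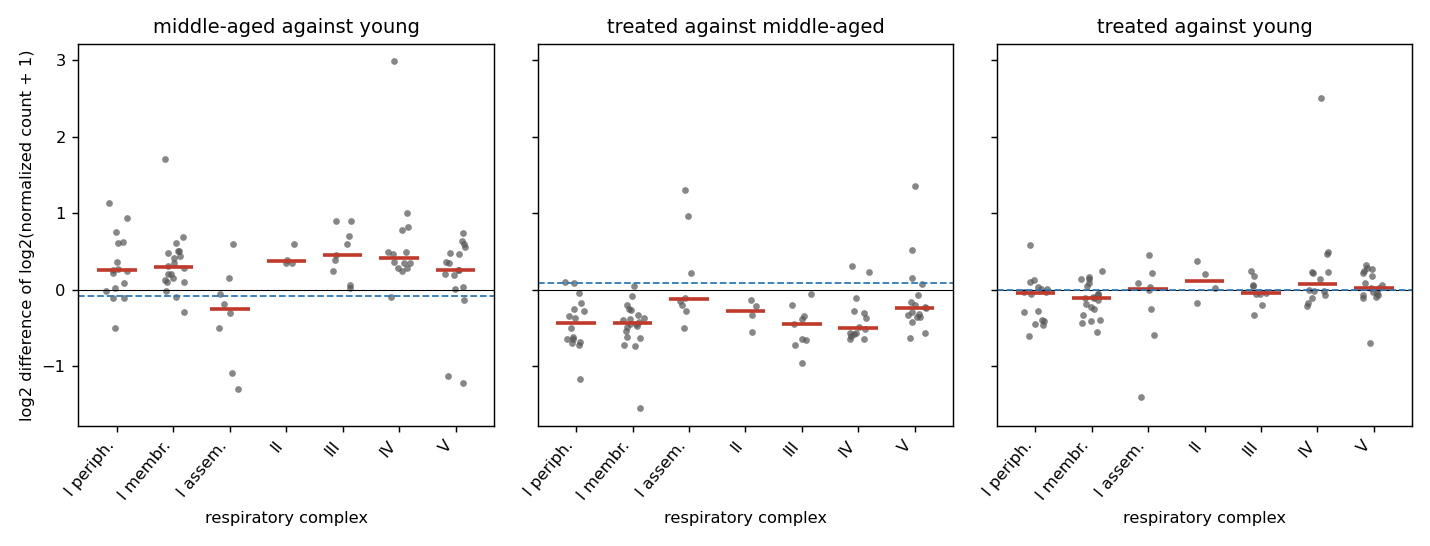
Difference between conditions for each gene (gray points) by complex, with the authors' size factors and on the scale of log2(normalized count + 1), with the complex median as a red bar and the median of all genes tested as a dashed blue line. In the comparison of middle-aged with young, the medians of 6 of the 7 groups lie between 0.25 and 0.45, and that of the complex I assembly genes at -0.25.

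The values, again with the authors' size factors, were not even over the complexes. In complex I, 12 of 16 peripheral and 17 of 20 membrane arm genes were above 0, with medians of 0.25 and 0.30. The complex I assembly genes went the other way, with 2 of 8 above 0 and a median of -0.25. Complex II had 4 of 4 above 0 (median 0.37), complex III 9 of 9 (0.45), complex IV 13 of 14 (0.41) and complex V 14 of 17 (0.26). Without middle-aged replicate 3 the medians were 0.01 and 0.10 for the peripheral and membrane arms, -0.39 for assembly, 0.28 for complex II, 0.19 for complexes III and IV and 0.04 for complex V.

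Complex II feeds electrons from the citric acid cycle into the chain, and Sdha encodes its flavoprotein, which oxidizes succinate. Sdha (chromosome 13, 74322254 to 74350280, minus strand, GRCm38, 15 exons) had 1132, 914 and 1135 normalized counts in the young libraries, 1526, 1684 and 1568 in the middle-aged ones and 1479, 1290 and 1353 in the treated ones. The 3 conditions did not overlap, with young lowest and middle-aged highest. The log2 difference of middle-aged from young was 0.59 (SE 0.19), with an adjusted p of 0.113 by limma and 0.0392 by DESeq2, and 0.60 without middle-aged replicate 3. That library was within 0.03 of the mean of the other middle-aged libraries for Sdha, unlike for most members. Sdhb, the iron-sulfur subunit, had 317, 398 and 360 in the young libraries, 321, 444 and 668 in the middle-aged ones and 398, 308 and 390 in the treated ones. Its groups overlapped, and its log2 difference was 0.35 (SE 0.30), or 0.08 without middle-aged replicate 3.

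In complex IV, Cox5a and Cox5b encode structural subunits. Cox5a (chromosome 9, 57521274 to 57532426, plus strand, 5 exons) had 290, 280 and 247 in the young libraries, 437, 521 and 718 in the middle-aged ones and 367, 384 and 394 in the treated ones. Its conditions did not overlap either, and stood in the same order as for Sdha. The log2 difference with age was 1.01 (SE 0.25), the smallest adjusted p of the members by limma (0.0583), with 0.00551 by DESeq2 and 0.0488 by limma on genes with a mean of at least 50. Without middle-aged replicate 3 it was 0.81. An exon of Cox5a overlaps Gm26631 on the opposite strand, which had 0 to 63.3 normalized counts, with the highest in middle-aged replicate 3. Whether reads were counted by strand was not stated. Cox5b had 169, 218 and 207 in the young libraries, 236, 310 and 569 in the middle-aged ones and 229, 207 and 262 in the treated ones. Its young and middle-aged libraries did not overlap, and its log2 difference was 0.82 (SE 0.34), or 0.46 without middle-aged replicate 3.

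The order young, treated, middle-aged without any overlap was seen for 2 of 88 members (2.27%, Sdha and Cox5a) and for 0.667% of all genes. The opposite order was seen for 0 members and 1.51% of all genes. Over the middle-aged and young libraries alone, 13 members were higher without overlap (14.8%, against 12.4% of all genes), a share near that background. These were Sdha, Cox5a, Cox5b, Cox6a2, Cox7c, Uqcrfs1, Ndufa1, Ndufa4, Ndufa5, Ndufa6, Ndufs6, Atp5j2 and Atp5k. In the other direction there was 1 member (1.14%, against 15.1% of all genes), Ndufaf1, an assembly factor of complex I.

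**Figure D3:**
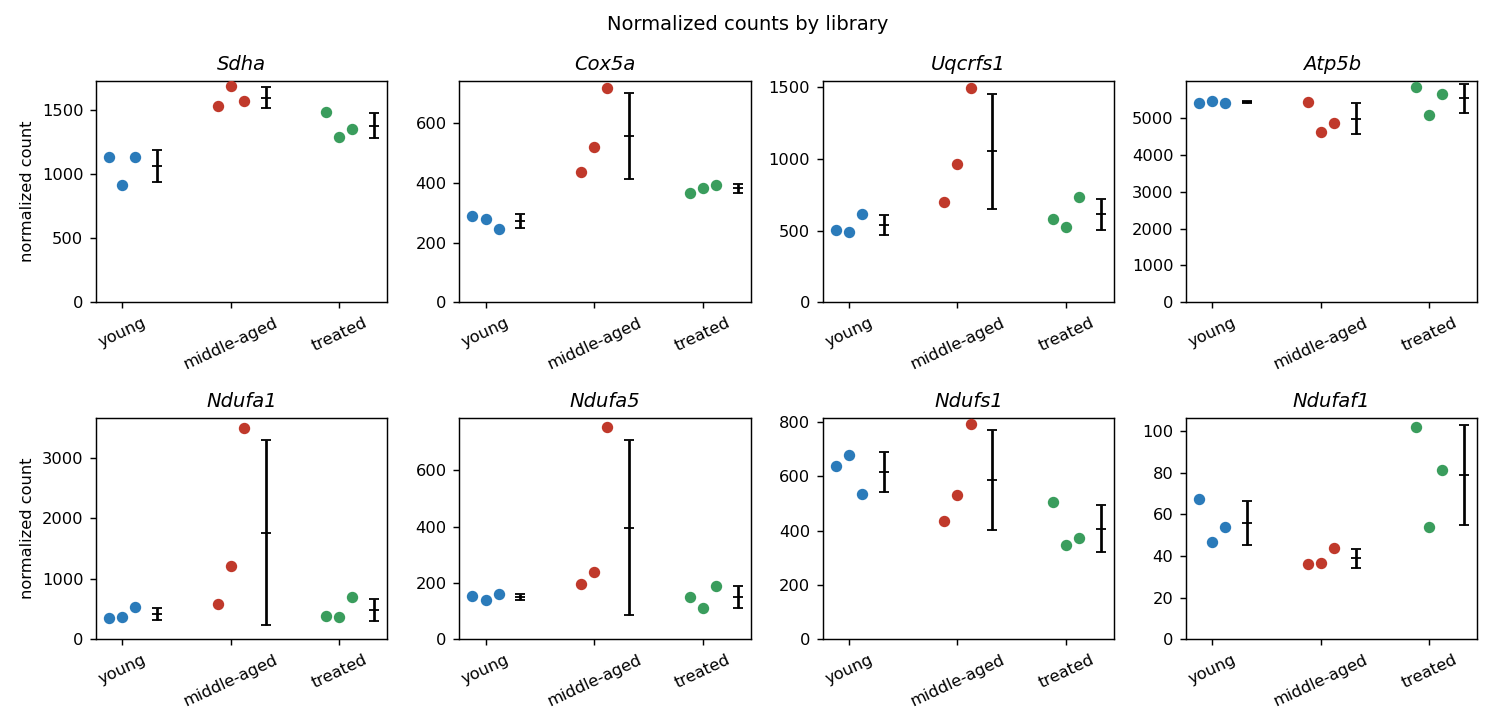
Normalized counts of 8 genes in each library, with replicates 1 to 3 from left to right and the mean ± SD of each condition beside them in black. Sdha and Cox5a separate the 3 conditions, Atp5b lies between 4610 and 5838 throughout, and middle-aged replicate 3 is the highest point for Uqcrfs1, Ndufa1, Ndufa5 and Ndufs1.

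Complex III carries electrons to cytochrome c. Uqcrfs1, which encodes the Rieske iron-sulfur protein, had 508, 492 and 619 in the young libraries, 700, 966 and 1491 in the middle-aged ones and 581, 525 and 735 in the treated ones. All middle-aged libraries were above all young ones, and the treated overlapped both. The log2 difference was 0.90 (SE 0.29; adjusted p = 0.110 by limma), or 0.61 without middle-aged replicate 3. Cyc1, which encodes cytochrome c1, had 302, 323 and 250 in the young libraries, 244, 406 and 558 in the middle-aged ones and 285, 308 and 307 in the treated ones, with overlap. Uqcrc1, a core protein of the complex, had 251, 458 and 516 in the young libraries, 564, 534 and 501 in the middle-aged ones and 414, 461 and 520 in the treated ones. Uqcrq, a small subunit, had 243, 305 and 401 in the young libraries, 309, 577 and 1070 in the middle-aged ones and 348, 247 and 305 in the treated ones. Its middle-aged range was wide, with middle-aged replicate 3 the highest, and its log2 difference with age was 0.89, or 0.45 without that library.

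Among the complex I genes, the young and middle-aged libraries overlapped for the core subunits Ndufv1, Ndufs7 and Ndufs1. Ndufv1, which encodes the subunit that binds NADH, had 390, 291 and 478 in the young libraries, 471, 286 and 487 in the middle-aged ones and 318, 221 and 427 in the treated ones. Ndufs7, an iron-sulfur subunit, had 191, 227 and 321 in the young libraries, 232, 386 and 272 in the middle-aged ones and 190, 283 and 320 in the treated ones. Ndufs7 overlapped in every comparison. Ndufs1, the largest subunit, had 637, 679 and 536 in the young libraries, 436, 532 and 792 in the middle-aged ones and 505, 345 and 372 in the treated ones. The treated libraries of Ndufs1 lay below the young ones, with a log2 difference of -0.61 (SE 0.28; adjusted p = 0.727 by limma), and its exons overlap Eef1b2 on the opposite strand, at 1178 to 3653 normalized counts.

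Among members with a mean of at least 50, the lowest difference with age was that of Atp5s, at -1.21 (SE 0.63; adjusted p = 0.265 by limma). It was -0.78 without middle-aged replicate 3. Atp5s had 83.5, 96.9 and 75.2 in the young libraries, 85.7, 27.8 and 19.3 in the middle-aged ones and 88.4, 42.5 and 37.0 in the treated ones, with overlap. Its value in middle-aged replicate 3 rests on 7 reads. The 4 highest differences with age among these members were those of Ndufa1, Ndufa5, Cox5a and Ndufa6. All but Cox5a are accessory subunits of complex I. Ndufa1, on chromosome X (37187588 to 37191163, minus strand, 3 exons), encodes a small membrane arm subunit needed for assembly. It had 352, 374 and 531 normalized counts in the young libraries, 582, 1208 and 3494 in the middle-aged ones and 390, 362 and 692 in the treated ones. The middle-aged libraries were above the young without overlap but differed widely among themselves, and treated replicate 3 was above middle-aged replicate 1. The log2 difference with age was 1.71 (SE 0.54; adjusted p = 0.104 by limma and 0.00292 by DESeq2), or 1.02 without middle-aged replicate 3. Ndufa5, a peripheral arm subunit, had 152, 138 and 159 in the young libraries, 195, 238 and 754 in the middle-aged ones and 149, 110 and 188 in the treated ones. Its log2 difference was 1.13 (SE 0.47), and 0.53 without middle-aged replicate 3. Ndufa6, also of the peripheral arm, had 156, 184 and 191 in the young libraries, 222, 281 and 616 in the middle-aged ones and 248, 260 and 290 in the treated ones. Ndufa6 was above the young range in every library from 52-week mice, with log2 differences of 0.93 for middle-aged (0.50 without middle-aged replicate 3) and 0.59 for treated against young.

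Of the assembly genes of complex I, 2 of 8 were above 0 with age. Ndufaf1 had 67.5, 46.7 and 53.9 in the young libraries, 36.0, 36.7 and 44.0 in the middle-aged ones and 102, 54.1 and 81.1 in the treated ones, so that the middle-aged libraries lay below both other conditions. Its log2 differences were -0.50 (SE 0.47) for middle-aged against young and 0.96 (SE 0.47) for treated against middle-aged. Ndufaf7, a methyltransferase that modifies a subunit of the complex, had 110, 140 and 108 in the young libraries, 134, 141 and 8.25 in the middle-aged ones and 194, 108 and 124 in the treated ones. The low value of Ndufaf7 rests on 3 reads in middle-aged replicate 3, and its log2 difference with age was -1.09 with that library and 0.22 without it. Ndufaf6, Cox6b2 and Atp5sl had 3, 2 and 1 reads there.

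Treatment with sodium salicylate was compared with no treatment at 52 weeks. None of the 88 genes passed the test by limma, with 0 in each direction, and the share of all genes called was 0% in each direction too. At an unadjusted p under 0.05 there were 6 members (6.82%), all lower, against 6.38% of all genes higher and 3.38% lower, and edgeR and DESeq2 called 0. The median log2 difference of the members was -0.36, with 12 of 88 above 0, beside 0.09 and 54.7% for all genes, of which 45.3% were below 0. Scaled by ribosomal protein genes it was 0.071, beside 0.51 for all genes, and by stromal niche genes -1.29, beside -0.86. Without middle-aged replicate 3 the median was -0.16, with 23 of 88 above 0 and 50.5% of all genes. With all libraries, the medians were -0.44 for both arms of complex I, -0.13 for assembly, -0.27 for complex II, -0.44 for complex III, -0.50 for complex IV and -0.24 for complex V. Without middle-aged replicate 3 they were -0.23 and -0.22 for the peripheral and membrane arms, 0.02 for assembly, -0.17 for complex II, -0.25 for complex III, -0.21 for complex IV and -0.05 for complex V. This comparison shares the middle-aged libraries with the comparison by age, so that a high middle-aged library moves both, in opposite directions.

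The log2 difference of treated from middle-aged was -1.55 (SE 0.54; adjusted p = 0.496 by limma) for Ndufa1, -1.16 for Ndufa5, -0.95 for Uqcrq and -0.73 for Ndufb9, a membrane arm subunit. These were the 4 lowest among members with a mean of at least 50. Without middle-aged replicate 3 they were -0.86, -0.56, -0.51 and -0.28. Treated libraries lay below all middle-aged ones for 8 members (9.09%, against 5.9% of all genes), namely Sdha, Cox5a, Cox6c, Uqcrc2, Ndufa5, Ndufs6, Ndufs8 and Atp5h. Above them lay 1 member (1.14%, against 8.19%), Ndufaf1. For Sdha the difference was -0.21 with a 95% interval from -0.64 to 0.21, and for Cox5a -0.52 from -1.07 to 0.04. The interval excluded a doubling for 79 of 88 members, and a halving for 36.

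Treated and young mice differ in age and in treatment, and the cell type markers differed too. All 7 pan-leukocyte and 8 neutrophil markers were higher in treated libraries without overlap (median log2 differences 1.50 and 1.46), against 8.99% of all genes. So were 3 of 8 B lineage and 3 of 5 macrophage markers. Of 10 stromal niche markers, 9 were lower without overlap, against 9.9%. By limma 1 pan-leukocyte, 1 neutrophil and 0 niche markers passed. The part of these cells was not tested. The median log2 difference of the members was -0.03, with 40 of 88 above 0, beside -0.01 and 49.3% for all genes. Of all genes, 50.7% were below 0. By limma 0 members passed in either direction, while 0.207% of all genes were called higher and 0% lower. There was 1 member at an unadjusted p under 0.05 (1.14%, against 6.91% of all genes). edgeR and DESeq2 called 0 members, while DESeq2 called 1.73% of all genes higher and 0.26% lower. The 95% interval lay within 2-fold in both directions for 54 of 88 members, against 34 for middle-aged and young and 31 for treated and middle-aged. Without overlap, 4 members were higher in treated libraries (4.55%, against 8.99% of all genes), Sdha, Cox5a, Cox6a2 and Ndufa6. There were 6 lower (6.82%, against 9.9%), the complex I genes Ndufs1, Ndufs8, Ndufv2, Ndufa2 and Ndufb6, and Uqcrc2. Ndufs8 and Ndufv2 encode iron-sulfur subunits, and Uqcrc2 a core protein of complex III. Leaving out young replicate 3 gave a median of 0.12, leaving out young replicate 1 gave -0.12 and leaving out treated replicate 2 gave 0.06, so that its sign rests on 1 library.

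**Figure D4:**
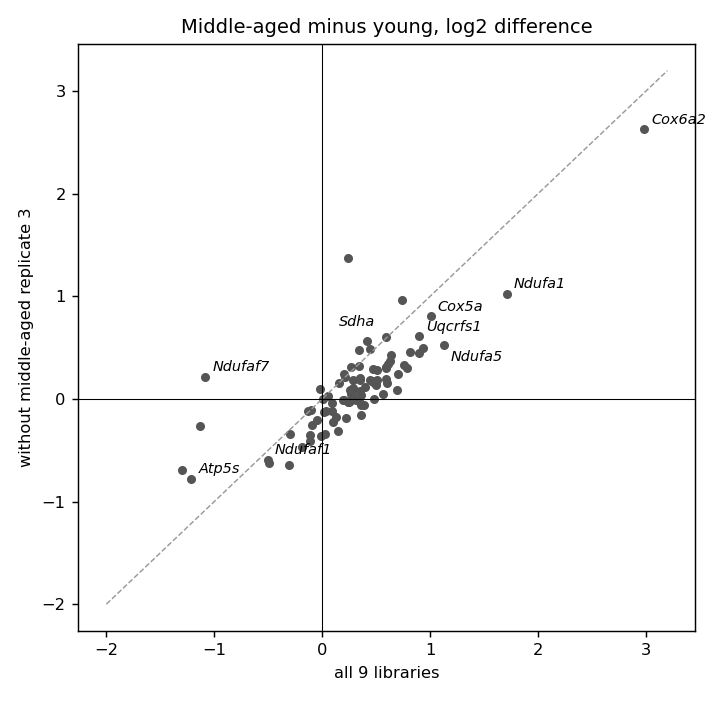
Log2 difference of middle-aged from young for each of the 88 genes with all 9 libraries (horizontal) and without middle-aged replicate 3 (vertical), with equality as a dashed line. Most points above 0 lie under the line, Sdha lies on it at 0.59 and 0.60, and Ndufa1 moves from 1.71 to 1.02.

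Middle-aged replicate 3 lay above both other middle-aged libraries for 67 of 88 members (76.1%, against 36.5% of all genes) and below both for 10 (11.4%, against 45.5%). The median log2 difference of this library from the mean of the other middle-aged libraries was 0.78 over 86 members with a transcript length and -0.18 over other genes. Short transcripts in general were higher in this library. For transcripts under 600 bases the medians were 0.79 for 18 members and 0.85 for 611 other genes. From 600 to 1000 bases they were 0.65 for 28 members and 0.42 for 765 others, and from 1000 to 2000 bases 0.82 for 31 members and -0.03 for 2921 others. Above 2000 bases they were 0.45 for 9 members and -0.30 for 10251 others. In both bins above 1000 bases the members' median was thus above 0 and that of other genes below. Lengths were those of the longest principal transcript, so a gene that mainly uses a shorter transcript may stand in too long a bin. Atp5g1, for example, was binned at 4715 bases and had a difference of 1.54 in this library. The members are short, with a median length of 944.5 bases, against 2898 for the other genes.

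Replicate 3 held the largest antibody share, the fewest reads and the smallest size factor of its condition in all 3 conditions, so these features cannot be told apart. Of the 88 members, 39 (44.3%) had their highest value in replicate 3 in each of the conditions, against 6.33% of all genes. With middle-aged replicate 1, which had the smallest antibody share at 52 weeks without treatment, also below replicate 2, there were 25 (28.4%, against 4.01%). Cytosolic ribosomal protein genes were higher in the same libraries, with a median log2 deviation from the young mean of 1.22 in middle-aged replicate 3, against 0.75 for the members, and 0.32 and 0.41 in middle-aged replicates 1 and 2, against 0.00 and 0.17. The part of antibody-rich cells, short transcripts and depth in the members' values was not tested.

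**Figure D5:**
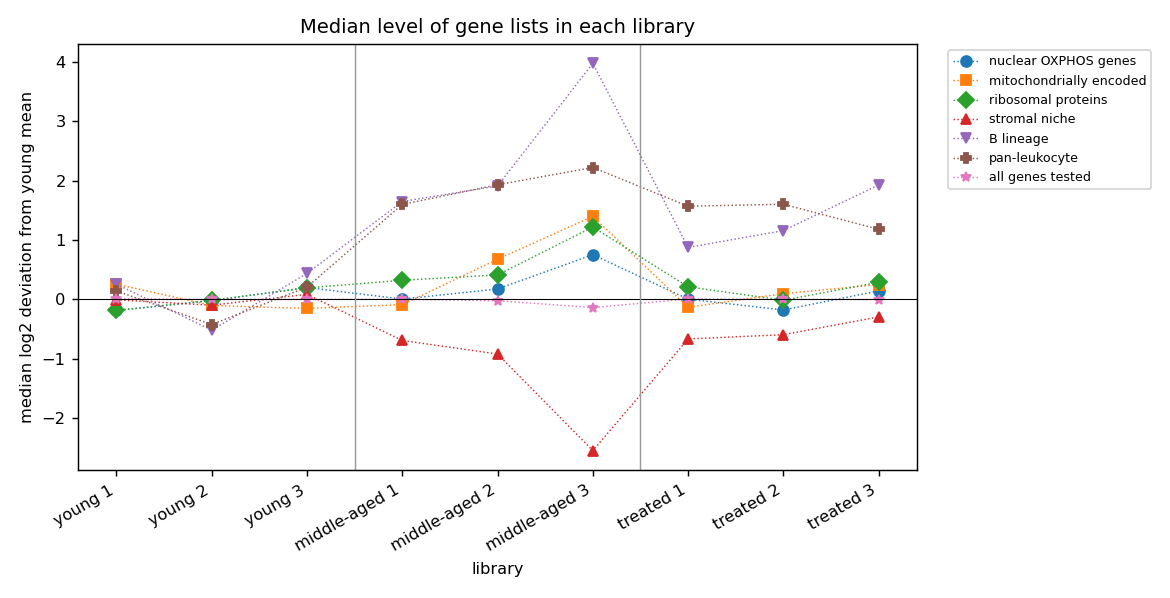
Median over genes of the log2 deviation from the young mean, for each library (horizontal axis) and gene list (symbols). The nuclear oxidative phosphorylation genes lie at 0.75 in middle-aged replicate 3 and between -0.19 and 0.20 in the other libraries, while the stromal niche markers are lowest, at -2.55, and the B lineage markers highest, at 3.98, in that library.

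Several subunits of complexes IV and V come in isoforms, and their shares do not depend on the size factor. The 3 genes for the c subunit of the ATP synthase encode the same mature protein. Atp5g3 gave 84.0%, 79.4% and 74.5% of their reads in the young libraries, 74.5%, 86.1% and 75.5% in the middle-aged ones and 78.5%, 79.2% and 82.6% in the treated ones. The conditions overlapped, with means of 79.3% ± 4.76 (SD, n = 3), 78.7% ± 6.42 and 80.1% ± 2.19. Atp5g2 gave the smallest share, with a mean of 2.01% in young. Over the 24 comparisons of isoform shares none passed, and the exact two-sided permutation test of 3 against 3 libraries cannot go below p = 0.1.

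Cox6a2, Cox7a1 and Cox8b encode the isoforms of complex IV subunits that are typical of heart and skeletal muscle. Cox6a2 gave 0.350%, 0% and 0.481% of the Cox6a1 and Cox6a2 reads in the young libraries, 2.92%, 0.951% and 2.90% in the middle-aged ones and 0.792%, 1.50% and 4.32% in the treated ones. All libraries from 52-week mice were above all young ones (exact permutation p = 0.1, adjusted p = 0.8 over 24 comparisons). The 95% exact interval of the lowest of them, treated replicate 1, was 0.410% to 1.38%, which overlaps that of young replicate 3, 0.177% to 1.04%. The 0 reads of young replicate 2 allow a share of up to 0.246%. The exons of Cox6a2 overlap Itgad on the opposite strand, which had 2.75 to 20.6 normalized counts, so the counts of Cox6a2 (0 to 43.1) are uncertain.

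Treated replicate 3 had the highest share of all 3 muscle-type isoforms. Its share of Cox7a1 among Cox7a1 and Cox7a2 was 7.78% (95% exact interval 5.66% to 10.4%), against at most 1.68% in the other libraries. Its share of Cox8b among Cox8a and Cox8b was 3.34% (2.15% to 4.93%), against at most 0.719%. Over the 7 muscle markers the sum was 396 normalized counts in the same library and 3.37 to 58.6 in the others, but 327 of the 396 came from Mb, which was at 0 in all others. Ckm was also highest there, at 52.4 against 0 to 13.1, while Acta1 (15.4) was higher in middle-aged replicate 2 (24.5), and Mylpf (2.05) and Tnnt3 (0) were higher in other libraries. Myh1 and Myh4, which define fast muscle fibers, were at 0 in every library. The part of muscle cells in these shares was not tested. Of the remaining isoforms, Cox8c had no read in any library, which allows up to 1.79 to 8.25 normalized counts by library, and Cox7b2 had 3.43 in middle-aged replicate 1 and 0 elsewhere. Ndufa4l2, the low-oxygen relative of Ndufa4, gave 1.65% to 5.02% of their reads, and Cox6b2, known from testis, 0.452% to 15.97% of the Cox6b1 and Cox6b2 reads, with both extremes of Cox6b2 in middle-aged libraries.

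The subunits encoded in mitochondrial DNA belong to the same complexes. Of 13 such genes, 11 were tested, and 0 passed in any comparison, with 1 at an unadjusted p under 0.05 for middle-aged against young (23.4% of all genes) and 2 for treated against middle-aged (9.76% of all genes). Their median log2 difference was 0.64 for middle-aged against young and -0.62 for treated against middle-aged, with 11 of 11 above 0 in the former and 0 of 11 in the latter. Without middle-aged replicate 3 the medians were 0.26 and -0.20, with 11 of 11 and 2 of 11 above 0. By library, their median log2 deviation from the young mean was -0.09, 0.68 and 1.40 in middle-aged replicates 1, 2 and 3. The difference with age that is left without replicate 3 thus rests on middle-aged replicate 2. mt-Co1, the catalytic subunit of complex IV, had 87030, 69200 and 64352 in the young libraries, 72145, 101400 and 200620 in the middle-aged ones and 66445, 86889 and 86602 in the treated ones. Its young and middle-aged ranges overlapped. mt-Co2 and mt-Co3, its partners in the same enzyme, were at 0 to 22.0 and 2.39 to 113, so the table cannot give the balance between them. Also low were mt-Nd4l (0.89 to 21.6), mt-Atp6 (4.49 to 88.0) and mt-Atp8 (1.20 to 13.8). The summed normalized counts of the 13 genes were 3.89 to 7.70 times those of the nuclear subunit genes. The lowest ratio was in young replicate 3 and the highest in middle-aged replicate 3. These sums are not corrected for length and hold almost nothing from the low genes, so the ratio is not one of transcript numbers.

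Beside the set, genes with related roles were read from the same fit. Among 37 tested assembly factors for the respiratory complexes, 0 were called higher and 1 lower with age, beside 2.14% and 0.873% of all genes. The 1 was Surf1, which acts in the assembly of complex IV (log2 difference -1.34, SE 0.31, adjusted p = 0.0490 by limma). Of the 37, 22 were above 0 with age (median log2 difference 0.16), beside 46.4% of all genes. Their median log2 deviation from the young mean was -0.04, 0.01 and 0.45 in middle-aged replicates 1, 2 and 3. Among 14 regulators of mitochondrial biogenesis, 16 import genes and 13 oxidative phosphorylation genes outside the symbol rule, 0 passed in any comparison. At an unadjusted p under 0.05 with age there were 0, 0 and 3 of them, beside 23.4% of all genes. Nrf1, whose motif was counted above, had 138, 128 and 166 in the young libraries, 156, 178 and 146 in the middle-aged ones and 270, 166 and 156 in the treated ones, with overlap. Cox4i1 had 1038, 1021 and 1232 in the young libraries, 1350, 889 and 1923 in the middle-aged ones and 1151, 766 and 1167 in the treated ones, also with overlap.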

How the data were processed

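RNA of sorted LepR+ cells was sequenced in 9 libraries, 3 per condition. The authors demultiplexed with bcl2fastq, aligned to mm10 (GRCm38) with STAR, counted with featureCounts and normalized with DESeq2, per the labels and submitters' processing notes. Versions, annotation, strandedness and treatment of reads with several matches are not given in the sources used here, so members with near-identical pseudogenes are uncertain. The deposited signal values are counts divided by 1 size factor per library, not by length. Whole reads were recovered for 100% of values within 0.1 read.

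Conditions were taken from the labels and compared with limma 3.58.1 (R 4.3.3) on log2(normalized count + 1), empirical Bayes with trend, over the 14998 genes whose mean was 10 or more, with all 9 libraries sharing the spread, and called at a Benjamini-Hochberg adjusted p under 0.05. A count test was an alternative because the values are normalized. The scale understates changes of low genes. Alternatives were pseudocounts of 0.5 and 5, a mean of at least 50, no filter, 5 other scalings, no trend, robust moderation, a replicate block, edgeR 4.0.16 on recovered reads, DESeq2 1.42.0 on the same reads, fits of each pair of conditions, and leaving out each library. Of these steps, only the main limma fit was tested on simulated data, with changes larger than those of most members. Positions and lengths came from GENCODE M21 on GRCm38 (92 of 94 members matched 1 gene) and promoters from RefSeq GRCm38.p6. Exons of 27 tested members overlap a gene on the opposite strand and of 4 on the same strand. Scripts ran in Python 3.11.15 (scipy 1.17.1, pandas 2.3.3, numpy 2.4.6, matplotlib 3.10.9).

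Named genes were called members, the 4 highest and 4 lowest differences per comparison among members with a mean of at least 50, 13 core subunits, isoform groups and the 5 most abundant by mean and per kilobase. Some genes under this rule are not given with their values. Others were named after their values were seen. One core subunit is not reported here. The members and lists were chosen with earlier results of these data known.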

Additional observations from a re-analysis of the deposited data

How the results depend on the processing

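The number of members called was 0 in every comparison under 146 of 150 alternative counts. The exceptions were all in the comparison of middle-aged with young, higher, with 1 (Cox5a) at a mean of at least 50 (3.07% of all genes), 36 of 89 when scaled by stromal niche genes (23.5% of all genes), 4 by DESeq2 (6.91%), and 0 to 7 when each library was left out. Scaling by niche genes shifted the median of all genes to 1.38 and scaling by ribosomal protein genes to -0.66, against -0.08. The members' median for middle-aged against young was 1.76 and -0.24 under these scalings. For treated against middle-aged it was -1.29 and 0.071, and for treated against young 0.49 under niche scaling. The sign of these medians therefore depends on the scaling. Under niche scaling Atp5b (1.32) and Ndufs4 (1.43) turned positive with age and passed the test. Leaving out each library gave medians of 0.09 to 0.46, -0.48 to -0.16 and -0.12 to 0.12 for the 3 comparisons. Deviations of same-numbered libraries correlated weakly (-0.01 to 0.12), with 8 of 9 above 0, against 5 of 18 for libraries of different number. Only 1 was above 0.1, and no label ties the numbers to a shared source, so they were not taken as pairs in the main fit. A shared source is not excluded by this. A replicate block gave 0 members called in each comparison, and 243 higher and 41 lower genes among all genes with age, against 321 and 131. At an unadjusted p under 0.05 with age, the block gave 14 members among 3585 genes, against 9 among 3509 in the main fit by limma. Genes of a few reads in middle-aged replicate 3 carry a wide counting error.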
